A study of Mus musculus with 37 samples.

Results

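The skeletal muscle genes followed here are 40 genes of the contractile apparatus, calcium handling, energy supply, protein turnover and myogenic control of striated muscle, measured in lung RNA. They were taken by symbol, and all 40 were found among the 24421 symbols of the count table. All 40 passed the filter on low counts, so that every one was tested. Each value comes from 1 lung library of 1 mouse, and levels are given as counts per 1000000 counts of the library (CPM).

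The study asked what kinds of radiation met in space do to the lung and whether nicotinamide riboside (NR), a precursor of NAD, alters it, as far as the labels state a purpose. All 37 mice were C57BL/6. The GCR group (7 mice, 3 males and 4 females) received 0.75 Gy of simulated galactic cosmic radiation, in a simplified version with 5 ions. The gamma group (5 mice, 3 males and 2 females) received 0.75 Gy of gamma rays from a caesium source. The silicon + NR group (6 mice, 4 males and 2 females) received 0.75 Gy of silicon ions and drank water with 12 mM NR, started before the exposure. The silicon group (7 mice, 3 males and 4 females) received the same ions at 0.75 Gy without NR. The mock + NR group (5 mice, 4 males and 1 female) drank 12 mM NR and was exposed to 0 Gy, and the mock group (7 mice, 5 males and 2 females) had 0 Gy and no NR. For age and for the time from exposure to dissection, the sources used here give nothing. GCR mice carry numbers of a different form in the labels, which do not say whether they were a separate cohort. Gamma replicate 5, labelled female, went against that label with Ddx3y, a Y-linked gene, at 87.6 CPM and Xist at 3.73 CPM, and was kept as labelled. The smallest library (GCR replicate 6) had 9485197 counts, the largest (GCR replicate 4) 66381526, and the median library 28476462.

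Skeletal muscle shortens when thick filaments of myosin pull on thin filaments of actin. Calcium released from the sarcoplasmic reticulum through the ryanodine receptor binds troponin C, and troponins I and T then free the actin surface for myosin. Fast and slow fibres use different genes for the same part of this machine, and satellite cells, the stem cells of muscle, replace damaged fibres. Lung tissue proper contains no skeletal muscle fibres. Heart muscle shares many of these genes, and in mice it also sheathes the large pulmonary veins.

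The stretch before the start of a muscle gene often carries E-boxes, bound by myogenic factors such as MyoD and myogenin, MEF2 sites and CArG boxes, bound by the serum response factor. 4 such stretches are shown, because these genes lead the results below: the actin of skeletal muscle, both myosin heavy chains of the fastest fibres, and Myh2, whose level set 1 library apart. Each runs 5′ to 3′ over the 250 bases before the gene's start in RefSeq (build GRCm38.p6), on the strand of the gene. They lie at chr8:123894776-123895025 (minus strand) for Acta1, chr11:67199852-67200101 (plus strand) for Myh1, chr11:67237562-67237811 (plus strand) for Myh4 and chr11:67170777-67171026 (plus strand) for Myh2. Capitals mark matches to CAGCTG, the MEF2 consensus or the CArG box.
Acta1: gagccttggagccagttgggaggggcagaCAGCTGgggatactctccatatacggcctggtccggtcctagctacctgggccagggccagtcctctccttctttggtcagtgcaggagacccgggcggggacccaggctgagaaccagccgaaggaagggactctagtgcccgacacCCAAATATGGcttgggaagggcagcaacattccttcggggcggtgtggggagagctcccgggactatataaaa
Myh1: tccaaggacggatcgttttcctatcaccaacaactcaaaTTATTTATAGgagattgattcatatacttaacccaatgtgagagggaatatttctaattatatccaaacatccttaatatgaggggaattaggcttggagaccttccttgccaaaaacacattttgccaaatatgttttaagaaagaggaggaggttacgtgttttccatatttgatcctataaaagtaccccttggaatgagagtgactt
Myh4: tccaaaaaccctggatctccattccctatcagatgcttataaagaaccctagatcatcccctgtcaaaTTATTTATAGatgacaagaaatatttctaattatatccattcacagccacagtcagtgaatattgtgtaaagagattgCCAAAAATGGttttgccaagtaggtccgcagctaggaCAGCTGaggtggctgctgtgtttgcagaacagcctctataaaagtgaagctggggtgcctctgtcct
Myh2: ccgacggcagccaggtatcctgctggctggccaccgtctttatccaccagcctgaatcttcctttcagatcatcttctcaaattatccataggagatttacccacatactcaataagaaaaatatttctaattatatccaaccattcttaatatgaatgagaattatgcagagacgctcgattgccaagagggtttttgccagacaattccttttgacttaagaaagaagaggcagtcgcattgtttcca
The E-box CAGCTG reads the same on both strands, the other motifs were searched on both, and the matches shown do not overlap. RefSeq gave such a stretch for 29 of the 40 genes. A gene counted if any of its stretches held the motif. CAGCTG stood in 15 of the 29 (51.7%), against 14.7% of the 27025 genes with such a stretch. The MEF2 consensus stood in 5 (17.2%, against 3.42% of all) and the CArG box in 2 (6.90%, against 1.62%). Acta1 held an E-box and a CArG box, Myh4 all 3 motifs, Myh1 the MEF2 consensus, and Myh2 none in this window. A match describes these letters and does not show that a factor binds there.

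Acta1 encodes the actin of skeletal muscle fibres and lies on chromosome 8 (mm10, 123891769 to 123894751, minus strand). Its level differed by orders of magnitude between lungs of 1 group. GCR libraries held 20.95, 13.4, 24.5, 6.99, 18.5, 48.5 and 9.95 CPM (replicates 1 to 7). Gamma libraries held 4.36, 17.2, 11.6, 8.19 and 7.197 CPM. All 12 libraries of these 2 groups were thus below 50 CPM.

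In silicon + NR, Acta1 stood at 29317 and 29651 CPM in replicates 1 and 4 and at 6.32 to 29.8 CPM in the other 4. In silicon it stood at 36927, 23216, 19540.1, 12472 and 9179 CPM in replicates 4, 5, 2, 7 and 6, at 403 CPM in replicate 3 and at 22.2 CPM in replicate 1. In mock + NR it stood at 29653 and 2195 CPM in replicates 2 and 5 and at 2.87 to 15.3 CPM in the other 3. In mock it stood at 23256, 21179, 9902 and 3409 CPM in replicates 3, 6, 5 and 4 and at 7.01 to 9.65 CPM in the other 3. The levels therefore fell into a low and a high range inside each of these 4 groups, and the groups overlapped.

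Above 1000 CPM of Acta1 were 13 of 37 libraries: 0 of 7 GCR, 0 of 5 gamma, 2 of 6 silicon + NR, 5 of 7 silicon, 2 of 5 mock + NR and 4 of 7 mock. The lowest of the 13 was mock + NR replicate 5 at 2195 CPM, and the highest library below the threshold was silicon replicate 3 at 403 CPM. By sex, 6 of 15 females and 7 of 22 males were above it. In silicon these were all 4 females and 1 of 3 males.

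**Figure D1:**
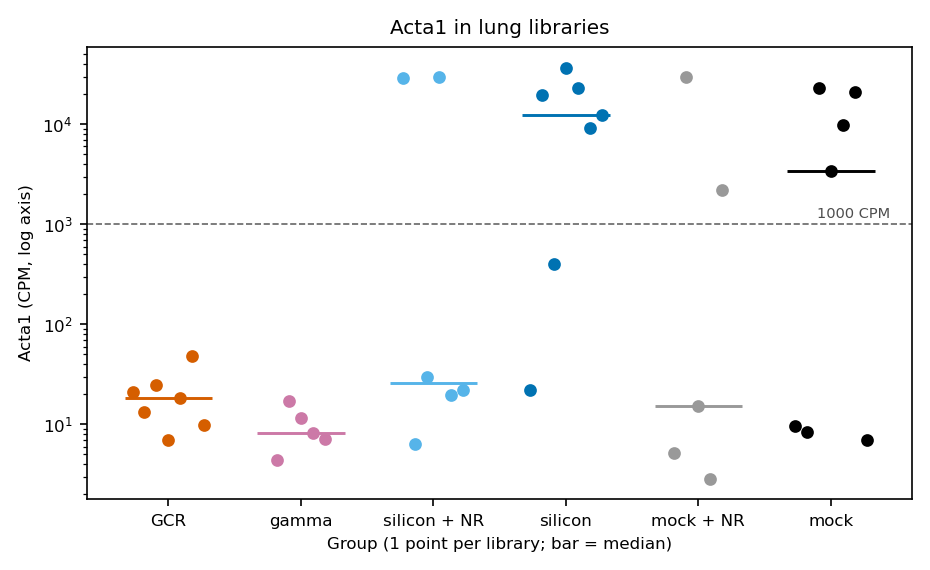
Acta1 level in CPM on a log axis (y) for each of the 37 libraries, by group (x), with the median as a bar and 1000 CPM as a dashed line. The 7 GCR and 5 gamma libraries lie below 50 CPM, while the other groups each hold libraries above 1000 CPM and libraries below 50 CPM.

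The 40 genes together took up to 14.3% of all counts in a library (silicon replicate 4). In the other 12 libraries above 1000 CPM of Acta1 their share ran from 0.791% (mock + NR replicate 5) to 9.75% (mock + NR replicate 2). In the 24 libraries below it, the share was at most 0.973%, in gamma replicate 4.

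On the mean of log2(CPM + 1), Acta1 did not pass in any of 6 comparisons of groups by an exact permutation test over mice, 2-sided and adjusted over these 6; other pairs of groups were not tested. GCR averaged 4.19 and mock 9.08, a difference of -4.88 (exact permutation p = 0.0676, adjusted p = 0.258, over 3432 splits of the mice). Gamma averaged 3.30 and mock 9.08, a difference of -5.77 (exact permutation p = 0.0859, adjusted p = 0.258). Silicon stood 2.91 above mock (exact permutation adjusted p = 0.419), and silicon + NR against silicon stood at -4.25 (exact permutation adjusted p = 0.289). For silicon + NR against mock + NR the difference was 0.82 (exact permutation adjusted p = 0.723). Its sign turned when single libraries were left out, to -0.60 without silicon + NR replicate 1 or replicate 4, -0.25 without mock + NR replicate 1 and -0.42 without mock + NR replicate 4. For mock + NR against mock it was -2.16 (exact permutation adjusted p = 0.552).

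Most of the 40 genes varied together with Acta1 from library to library, as the map of all levels shows. In 24 of the 40, every one of the 13 libraries above 1000 CPM of Acta1 lay above all 24 others, while 0.63% of the 16977 genes tested did so. Against the 22 libraries that were neither rich in Acta1 nor rich in heart genes this held for 27 members, against a background of 0.978%. Since Acta1 chose the libraries, these counts describe them and carry no test. Tnnt3, troponin T of fast fibres, ranged from 395 to 9705 CPM in the 13 libraries and from 5.33 to 145 CPM in the 24. Atp2a1, the calcium pump of fast fibres, ranged from 433 to 11034 CPM in the 13 and from 3.33 to 77.8 CPM in the 24. Ckm, the creatine kinase of muscle, ranged from 251 to 3681 CPM in the 13 and from 2.59 to 111 CPM in the 24. In both sets the highest value of the 24 lay below the lowest of the 13.

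The members whose ranges overlapped were mostly slow fibre genes and genes that heart muscle also uses. Tnnt1, troponin T of slow fibres, lay between 3.38 and 9.75 CPM in 12 of the 13 libraries and between 0.263 and 5.25 CPM in the 24. Myh7, the slow and cardiac beta myosin, lay between 2.85 and 13.9 CPM in 12 of the 13 and between 2.33 and 59.4 CPM in the 24. Mb, myoglobin, an oxygen store of red muscle and heart, lay between 438 and 7447 CPM in the 13 and between 2.22 and 3178 CPM in the 24.

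**Figure D2:**
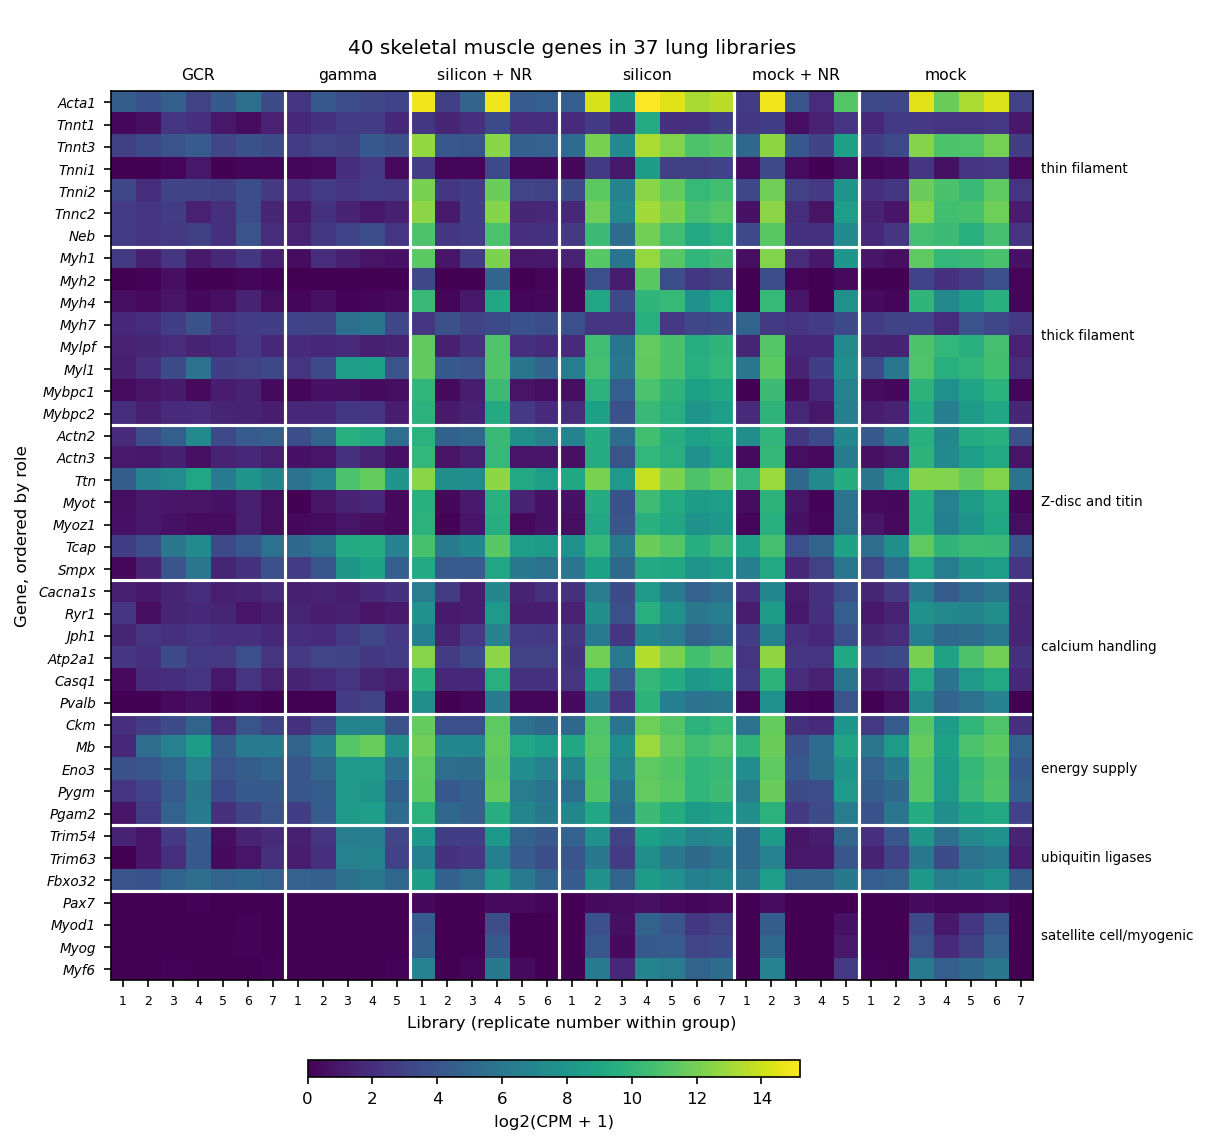
Colour gives log2(CPM + 1) of each of the 40 genes (rows, ordered by role) in each of the 37 libraries (columns, by group). Most rows are bright in the same 13 libraries, among them silicon + NR replicates 1 and 4 and mock replicates 3 to 6, and gamma replicates 3 and 4 are bright mainly in rows such as Mb, Ttn, Actn2 and Tcap.

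**Figure D3:**
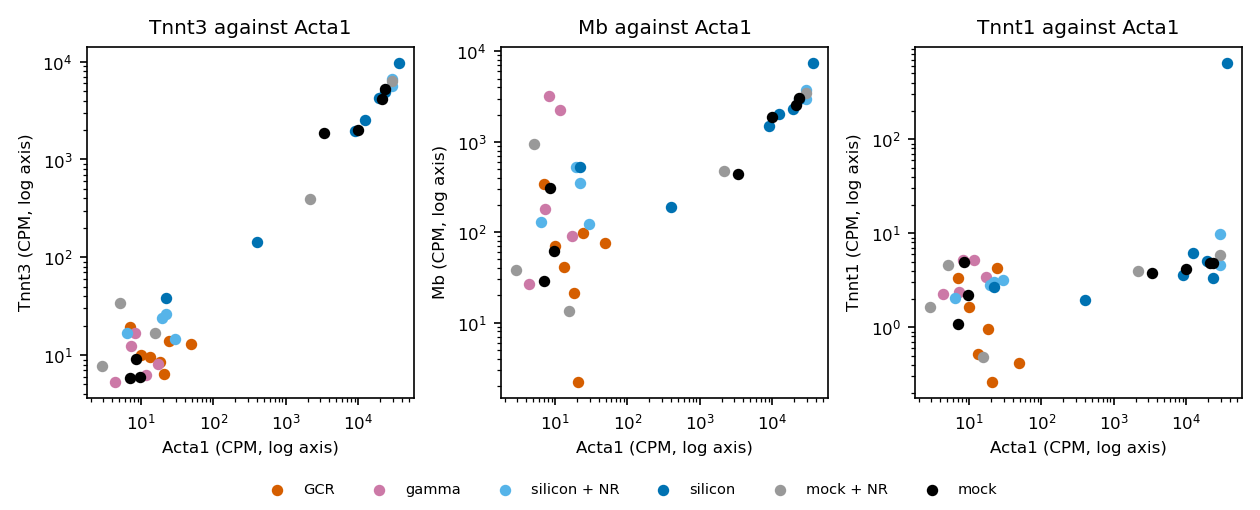
Levels of Tnnt3, Mb and Tnnt1 (y, CPM, log axis) against Acta1 (x, CPM, log axis), 1 point per library, coloured by group. Tnnt3 climbs with Acta1 up to 9705 CPM, Mb is also high in 2 gamma libraries with little Acta1 (2245 and 3178 CPM), and Tnnt1 stays below 10 CPM in every library but silicon replicate 4 (647 CPM).

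In GCR lungs 34 of the 40 genes fell and 0 rose relative to mock lungs, by edgeR's quasi-likelihood test with Benjamini-Hochberg adjustment over 16977 genes. Of all genes tested 8.52% fell and 8.03% rose. The median log2 fold change of the 40 was -6.32, with a range of -8.96 to -0.67, against -0.06 over all genes. By role, 5 of 7 thin filament genes fell, 6 of 8 thick filament genes, 7 of 7 Z-disc and titin genes, 6 of 6 calcium handling genes, 5 of 5 energy genes, 2 of 3 ubiquitin ligases and 3 of 4 satellite cell and myogenic genes. By fibre type, 13 of 14 fast members fell (median -7.62) and 1 of 4 slow members (median -2.38). Of the 13 members listed as also expressed in heart, 10 fell (median -4.16). The 6 members that were not called were Myh2, Myh7, Tnnt1, Tnni1, Trim63 and Pax7, all with a negative fold change. In bulk tissue, fewer cells of a type and less RNA per cell cannot be told apart.

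Fits without some libraries were added after the data were seen. Leaving out the 13 libraries above 1000 CPM of Acta1 takes away the 4 mock libraries that are high in the members and no GCR library. Because Acta1 is a member, the loss of the calls follows from that choice, and the values only describe the libraries left: 0 of 37 members tested fell and 0% of 17142 genes fell. The median of the members was then 0.16 over 7 GCR and 3 mock libraries, with 4 members at an unadjusted p under 0.05. With both gamma libraries rich in heart genes also left out, 0 of 37 fell, against a background of 0% (median 0.18). Rn45s, which encodes the ribosomal RNA precursor, was above 100000 CPM in GCR replicates 2, 5 and 6 and in mock replicate 4. Without these 4 libraries 0 of 40 fell and 0% of all genes fell, with a median of -6.06 and 33 members at an unadjusted p under 0.05. Leaving out single libraries moved the calls of all genes as well as those of the members. Without GCR replicate 2, 2 members (Tnnt3 and Mylpf) and 102 of 16966 genes fell. Without GCR replicate 5, 22 members and 391 of 16955 genes fell, and without mock replicate 6, 6 members and 560 of 16949 genes. Without any other single GCR or mock library, 26 to 36 members and 613 to 2181 genes fell. DESeq2 called 35 members lower, against 11.6% of all genes.

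Among the thin filament genes, Acta1 is given above, with GCR libraries at 6.99 to 48.5 CPM (median 18.5) and mock libraries at 7.01 to 23256 CPM (median 3409). Its log2 fold change was -8.43 (SE 2.29, edgeR adjusted p = 0.0176), whereas the exact permutation test on Acta1 alone did not pass (adjusted p = 0.258). Tnnt3 lay at 6.39 to 19.2 CPM in GCR (median 10.1), against 5.85 to 5216 CPM in mock (median 1852). All 7 GCR libraries lay below mock replicates 3 to 6 and overlapped mock replicates 1, 2 and 7. Tnnt3 fell by 7.33 on the log2 scale (SE 1.84, edgeR adjusted p = 0.0131). Tnni2 and Tnnc2, the fast troponins I and C, and Neb, the ruler protein nebulin, also fell, and Tnnt1 and Tnni1 stood at -1.27 and -3.50 without passing.

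Among the thick filament genes, Myh1, a fast myosin heavy chain of type IIx fibres, lay at 1.115 to 4.85 CPM in GCR (median 2.29), against 0.538 to 2663 CPM in mock (median 1078). The GCR libraries lay just above the 3 low mock libraries and far below the other 4. Myh1 fell by 8.15 on the log2 scale (SE 2.30, edgeR adjusted p = 0.0202). Myl1, an essential light chain of fast muscle, lay at 1.39 to 50.01 CPM in GCR (median 6.96), against 3.01 to 2079 CPM in mock (median 743), and fell by 6.25 (SE 1.74, edgeR adjusted p = 0.0192). Without GCR replicate 2 or without mock replicate 6 neither Myh1, Myl1 nor Acta1 was called, with edgeR adjusted p values of 0.0514 to 0.0616. Mylpf, the regulatory light chain, Myh4 and the myosin-binding proteins Mybpc1 and Mybpc2 fell as well, while Myh2 (-4.74) and Myh7 (-0.67) did not pass. Of the 50-base windows of the main transcripts of Myh1, Myh2, Myh4 and Myh7, 18.9% to 26.9% also occur in other myosin genes, and 32.1% of those of Myl1 in its pseudogene Mylf-ps, so that their counts are uncertain.

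Among the Z-disc and titin genes, Ttn, the giant spring protein titin, lay at 21.03 to 477 CPM in GCR (median 116), against 53.5 to 5288 CPM in mock (median 3064). The highest GCR library, replicate 4, lay above 3 of the 7 mock libraries. Ttn fell by 4.22 (SE 1.32, edgeR adjusted p = 0.0296). Its call was lost without GCR replicate 1, 2, 5 or 6 or without mock replicate 3 or 6 (edgeR adjusted p from 0.0513 to 0.0770). Tcap, the titin cap protein, lay at 6.09 to 155 CPM in GCR (median 16.6), against 16.5 to 2664 CPM in mock (median 968), and fell by 4.67 (SE 1.23, edgeR adjusted p = 0.0152), a call lost without GCR replicate 2 (edgeR adjusted p = 0.0544). Actn2 and Actn3, the cross-linking alpha-actinins, and the muscle proteins Myot, Myoz1 and Smpx fell too.

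Among the calcium handling genes, Atp2a1 lay at 3.33 to 12.2 CPM in GCR (median 4.64), against 3.72 to 4327 CPM in mock (median 433). The GCR and low mock libraries overlapped. It fell by 7.79 (SE 2.06, edgeR adjusted p = 0.0159), and without GCR replicate 2 the edgeR adjusted p was 0.0532. Casq1, the calcium store protein of fast fibres, lay at 0.301 to 3.796 CPM in GCR (median 2.70), against 1.22 to 606 CPM in mock (median 53.3), and fell by 6.47 (SE 1.75, edgeR adjusted p = 0.0171). The Casq1 call was lost without GCR replicate 2 or mock replicate 6 (edgeR adjusted p of 0.0526 and 0.0649). The voltage sensor Cacna1s, the release channel Ryr1, the junction protein Jph1 and the calcium buffer Pvalb also fell, between -7.85 (Pvalb) and -3.33 (Jph1).

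Among the energy genes, Mb lay at 2.22 to 337 CPM in GCR (median 70.7), against 28.7 to 3054 CPM in mock (median 438), with overlap between the groups. It fell by 3.99 (SE 1.28, edgeR adjusted p = 0.0337), but not without GCR replicate 1, 2, 5 or 6 or mock replicate 3, 5 or 6 (edgeR adjusted p from 0.0547 to 0.0883). Pygm, the glycogen phosphorylase of muscle, lay at 3.84 to 69.7 CPM in GCR (median 18.8), against 21.1 to 2422 CPM in mock (median 312). It fell by 5.53 (SE 1.53, edgeR adjusted p = 0.0187), a call lost without GCR replicate 2 or mock replicate 6 (edgeR adjusted p of 0.0599 and 0.0623). Ckm and the glycolytic Eno3 and Pgam2 fell by 6.39, 4.77 and 4.18.

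The ubiquitin ligases tag muscle proteins for breakdown. Fbxo32 (atrogin-1) lay at 12.96 to 41.1 CPM in GCR (median 27.2), against 21.5 to 276 CPM in mock (median 85.5), and fell by 2.09 (SE 0.74, edgeR adjusted p = 0.0498). That call was lost in 10 of the 14 fits without 1 GCR or mock library, all but those without GCR replicate 4 or mock replicates 1, 2 and 7 (edgeR adjusted p from 0.0568 to 0.138). It was also lost with RLE scaling, with muscle genes kept out of the scaling, without a filter on low counts, in a fit of only these groups and without the heart-rich gamma libraries (edgeR adjusted p from 0.0501 to 0.0584). Trim54 (MuRF3) lay at 0.482 to 17.7 CPM in GCR (median 1.81), against 2.02 to 257 CPM in mock (median 47.2), and fell by 4.67 (SE 1.36, edgeR adjusted p = 0.0231). Its call was lost without GCR replicate 2 or 5 or mock replicate 6 (edgeR adjusted p from 0.0536 to 0.0685).

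Of the myogenic factors, Myf6 (Mrf4), which mature fibres express, had 0 to 0.105 CPM in GCR, against 0 to 78.3 CPM in mock (median 22.05). Myog, myogenin, had 0 to 0.105 CPM in GCR (at most 3 counts in a library), against 0 to 26.8 CPM in mock (median 2.47). The 4 mock libraries above 1000 CPM of Acta1 held 2.47 to 26.8 CPM of Myog, and the other 3 mock libraries at most 0.0336 CPM. Myf6 fell by 8.96 (SE 2.36, edgeR adjusted p = 0.0153) and Myog by 7.49 (SE 2.20, edgeR adjusted p = 0.0236). Without GCR replicate 2 or mock replicate 6 neither was called, nor was Myog without GCR replicate 5 (edgeR adjusted p from 0.0514 to 0.1302). Pax7, the marker of satellite cells, had 0, 0, 1, 7, 0, 0 and 0 counts in the GCR libraries, against at most 0.388 CPM in mock, and stood at -2.56 (SE 1.03, edgeR adjusted p = 0.0771). It passed without GCR replicate 4 (-3.88, edgeR adjusted p = 0.0311) and without mock replicate 7 (-2.90, edgeR adjusted p = 0.0464). A count of 0 allows up to 3 counts in a library, which is 0.0452 CPM in GCR replicate 4 and 0.316 CPM in GCR replicate 6, and covers counting error only.

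**Figure D4:**
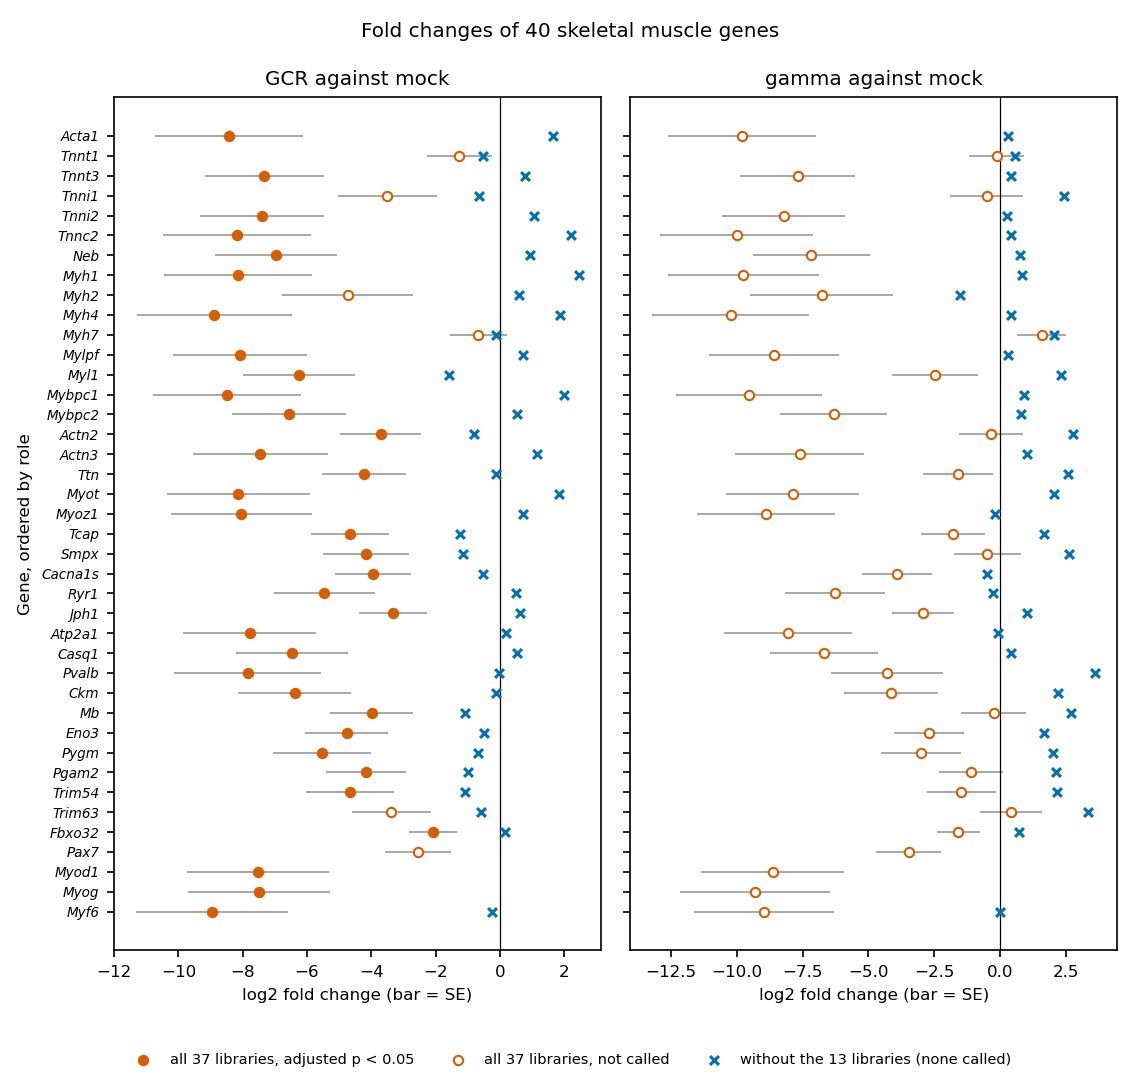
Log2 fold change (x, bar = SE) of each of the 40 genes (y, by role) for GCR against mock (left) and gamma against mock (right), with filled circles for genes called by edgeR over all 37 libraries and crosses for the fit without the 13 libraries above 1000 CPM of Acta1. The circles of GCR lie between -8.96 and -0.67 with 34 filled, and without the 13 libraries the crosses scatter around a median of 0.16 for GCR and 0.91 for gamma.

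In gamma lungs 0 of the 40 genes were called relative to mock lungs by edgeR's quasi-likelihood test with Benjamini-Hochberg adjustment, with 24 at an unadjusted p under 0.05. Of all genes, 0% fell and 0.0295% rose. The fold changes were negative in 38 of 40 (median -5.28, against -0.01 over all genes), with Myh7 at 1.58 and Trim63 at 0.41. DESeq2 called 20 members lower, against 0.907% of all genes. Without the 13 libraries above 1000 CPM of Acta1 edgeR called 0 of 37 lower, against 0% of all genes (median 0.91, with 9 members at an unadjusted p under 0.05). Gamma and GCR share the mock mice.

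Of the 14 fast members, 12 were at most at 16.8 CPM in each of the 5 gamma libraries. Myl1 stood at 352 and 385 CPM and Pvalb at 5.19 and 7.54 CPM in gamma replicates 3 and 4, against at most 13.6 and 0.346 CPM in the other 3. Tnnt3 lay at 5.33 to 16.8 CPM in gamma, against 5.85 to 5216 CPM in mock, and its log2 fold change was -7.68 (edgeR adjusted p = 0.244). Acta1 stood at -9.80 (SE 2.83, edgeR adjusted p = 0.244) and Myh1 at -9.75. Genes shared with heart differed between the gamma libraries. Mb had 26.99, 89.96, 2245, 3178 and 179 CPM in gamma replicates 1 to 5, against 28.7 to 3054 CPM in mock (median 438). Replicates 3 and 4 were as high as the mock libraries rich in Acta1, and the other 3 lay below the mock median. Mb stood at -0.23 (SE 1.24, edgeR adjusted p = 0.975), and leaving out 1 library moved it between -1.09 (without gamma replicate 3) and 0.31 (without mock replicate 3).

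Gamma replicates 3 and 4 held much heart RNA, with Nppa, the atrial natriuretic peptide gene, at 17519 and 24514 CPM and Myh6, the atrial and cardiac alpha myosin, at 8547 and 6719 CPM. In the 22 libraries that were neither rich in Acta1 nor in Nppa, Ttn reached at most 1076 CPM, against 1900 and 3014 CPM in these 2. Actn2, the alpha-actinin of heart and slow muscle, stood at 758.2 and 624.7 CPM, against at most 187 CPM in the 22. Trim63 (MuRF1) stood at 97.97 and 111 CPM, against at most 33.6 CPM. In 16 of the 40 genes both libraries lay above all 22, as did 8.85% of all genes tested. Those 16 included Mb, Tcap, Smpx, Eno3, Pygm, Ckm, Trim54, Myh7 and Tnni1. They also included Tnnt1, Myl1, Pvalb and Pgam2, which were not listed as expressed in heart. Fbxo32, which was so listed, stood at 47.2 and 68.3 CPM, inside the range of the 22. Acta1 stood at 11.6 and 8.19 CPM in these libraries, and Tnnt3, Tnni2, Atp2a1 and Myh1 also lay inside the range of the 22. Over the 15 listed heart markers, the summed level ran from 618 to 48876 CPM in gamma, 76.5 to 6667 CPM in GCR and 601 to 11804 CPM in mock. The list includes Myl2 and Myl3, which slow muscle also uses, and the mock range includes 4 libraries above 1000 CPM of Acta1. In silicon replicate 4 the sum was 4763 CPM with Nppa at 5.18 CPM and Myh6 at 9.85 CPM. The sum therefore does not measure heart RNA alone.

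In silicon lungs 0 of the 40 genes were called relative to mock lungs by edgeR's quasi-likelihood test, with 0% of all genes called in either direction. All 40 fold changes were positive (median 0.81, against 0.07 over all genes); without silicon replicate 4 the median was 0.31 with 6 of 39 negative, and in a fit of only these 2 groups 0.31 with 3 of 39 negative. Over all libraries 4 members had an unadjusted p under 0.05, and DESeq2 called 0. These 4 were Tnnt1 (4.47, SE 1.22, edgeR adjusted p = 0.08998), Myh7 (3.395), Myh2 (6.40) and Tnni1 (3.97). Without silicon replicate 4 the same 4 stood at 0.05, -0.04, 0.63 and 0.85. Without the 13 libraries above 1000 CPM of Acta1, silicon replicates 1 and 3 and mock replicates 1, 2 and 7 were left, and silicon replicate 3 held 403 CPM of Acta1. In that fit 11 of 37 members passed as higher in silicon, against 0.496% of all genes, and 13 with both heart-rich gamma libraries also left out, against 0.769%. Since Acta1, a member, chose the libraries, nothing about silicon is read from these counts.

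Silicon + NR against mock + NR, mock + NR against mock and silicon + NR against silicon gave 0 of 40 called, each against 0% of all genes in either direction by edgeR's quasi-likelihood test. Unadjusted p values under 0.05 were found for 0, 0 and 3 members, and DESeq2 called 0 in each. The medians were 0.42, -0.19 and -0.67, and single libraries turned or moved each of them. For silicon + NR against mock + NR the median was -0.33 without silicon + NR replicate 1, -0.15 without silicon + NR replicate 4 and 4.34 without mock + NR replicate 2. For mock + NR against mock it ran from -3.96 without mock + NR replicate 2 to 0.49 without mock replicate 3. For silicon + NR against silicon it ran from -1.49 without silicon + NR replicate 1 to -0.11 without silicon replicate 4. The change of the silicon effect with NR was called for 0 of 40 members by edgeR, with 2 at an unadjusted p under 0.05. Counts at an unadjusted p, here and above, are given without the share over all genes and are not read as results. The same holds for the 0 of 40 called for the change of the silicon effect with NR. Without silicon replicate 1, Tnnt1 alone of the 40 passed as lower in silicon + NR than in silicon, while 261 of 16959 genes did. Silicon replicate 4 held 647 CPM of Tnnt1, and without that library 0 members had an unadjusted p under 0.05. Without the 13 libraries, 4 silicon + NR and 2 silicon libraries were left, 1 of them silicon replicate 3 with 403 CPM of Acta1. In that fit 4 members passed as lower in silicon + NR, against 0.933% of all genes. With the heart-rich gamma libraries also left out, 3 passed as lower there, against 1.02%, and 1 passed as higher in mock + NR than in mock, against 0.47%. These counts too follow a choice of libraries by a member, and no result is read from them.

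Within the 13 libraries above 1000 CPM of Acta1 the make-up by fibre type was described without a test, on levels per length (CPM per kb of the main transcript). The summed level of the 14 fast members was above that of the 4 slow members in every library. The lists differ in size, and fast members such as Tnnc2 and Mylpf have no slow partner listed, which lowers the slow share. Myl3, a light chain of slow muscle and heart, is not on the slow list. The 4 slow members Myh7, Tnnt1, Tnni1 and Mybpc1 together took 3.28% of the summed fast and slow level in silicon replicate 4 and 0.594% to 1.56% in the other 12. Without Mybpc1 the slow share was 2.27% in silicon replicate 4 and 0.0302% to 0.296% in the others.

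Silicon replicate 4, from a female, stood apart in Tnnt1, Tnni1 and Myh7. Tnnt1 was at 647 CPM in it, against 3.38 to 9.75 CPM in the other 12, and took 6.14% of the 2 troponin T genes per length (Clopper-Pearson 95% interval 6.05% to 6.23%), against 0.0670% to 0.975%. Tnni1 was at 319 CPM, against 0.448 to 9.21 CPM, and took 3.65% of the 2 troponin I genes, against 0.0227% to 0.366%. Myh7 was at 761 CPM, against 2.85 to 13.9 CPM. The share of Mybpc1 among Mybpc1 and Mybpc2 was 58.6% in silicon replicate 4, inside the 49.8% to 67.5% of the others. The troponin transcripts share no 50-base window with another gene.

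Among 6 myosin heavy chains per length, Myh2, the heavy chain of type IIa fibres, took 14.8% in silicon replicate 4 and 0.0266% to 0.210% in the other 12 libraries. Its level there was 2544 CPM, against 0.320 to 30.4 CPM. Myh7 took 4.33%, against 0.0328% to 0.782%. Myh1 took 41.2%, against 20.6% to 39.1%, and Myh4, the heavy chain of type IIb fibres, took 5.78%, against 3.89% to 16.2%. Myh8, the perinatal myosin and not 1 of the 40 genes, took 33.9% in silicon replicate 4 and 55.6% to 65.3% in the others. Its share was the largest in 12 of the 13 libraries. Of the 50-base windows of Myh8, 21.4% also occur in other myosin genes, so that these shares are uncertain, as are the counts of the member myosins. Myh3, the embryonic myosin, took at most 0.0359%.

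**Figure D5:**
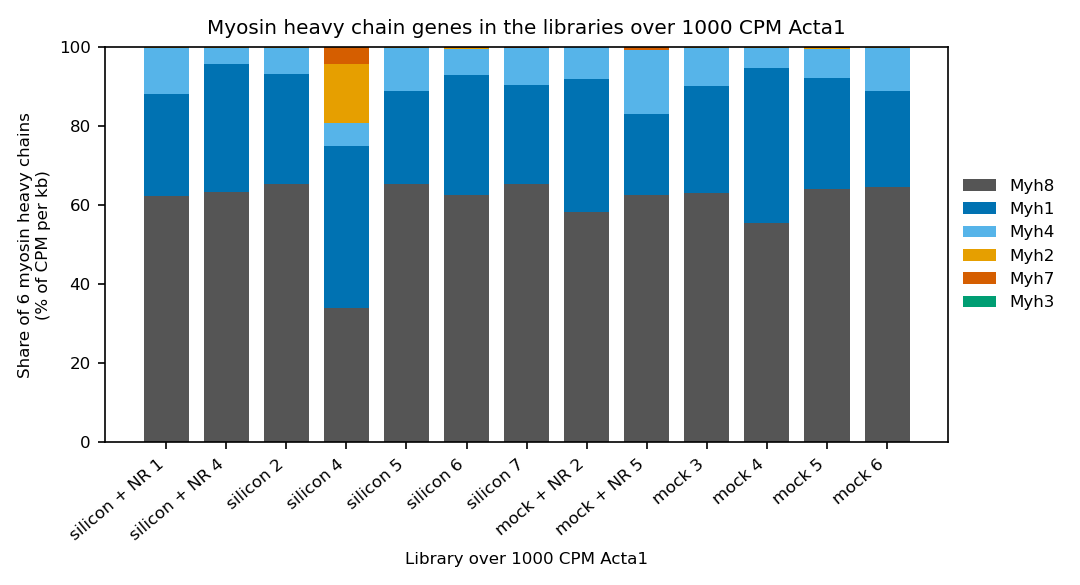
Share of each of 6 myosin heavy chain genes in their summed level (y, % of CPM per kb) in the 13 libraries above 1000 CPM of Acta1 (x). Silicon replicate 4 shows 14.8% of Myh2 and 4.33% of Myh7, while in the other 12 libraries Myh8 takes 55.6% to 65.3% and Myh2 at most 0.210%.

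Other genes also set silicon replicate 4 apart, chosen after their values were seen. Myl2, the regulatory light chain of slow muscle and heart ventricle, was at 757 CPM. Ankrd2, a stretch-responsive protein of slow muscle, was at 122 CPM, against at most 1.10 CPM in the other 12. Pvalb, typical of fast fibres, was at 887 CPM, against 14.2 to 192 CPM. The heart genes Myh6 and Nppa stood at 9.85 and 5.18 CPM in silicon replicate 4, both the lowest of the 13 libraries.

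The myogenic genes went with the muscle-rich libraries, and Pax7 did so less sharply. Myod1 (MyoD), which commits cells to muscle, lay at 0.672 to 27.5 CPM in the 13 libraries and at 0 to 0.528 CPM in the 24 others. Myog lay at 1.06 to 33.2 CPM and Myf6 at 4.99 to 109 CPM in the 13, and at most at 0.352 and 2.25 CPM in the 24. Pax7 lay at 0.0320 to 0.611 CPM in the 13 and at 0 to 0.423 CPM in the 24, and was at 0 in 14 libraries. It was at 0.423 CPM in silicon replicate 3 and at 0.310 CPM in silicon + NR replicate 5, both below the threshold for Acta1. Summed per length, these 4 genes came to 0.215% to 0.399% of the fast members in the 13 libraries (0.256% in silicon replicate 4).

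Ratios to Acta1 showed which genes kept step with it among the 13 libraries. Ckm was the steadiest of the 39, at 0.0925 to 0.114 of the Acta1 count, a 1.23-fold range. Silicon replicate 4 stood at 137, 59.9, 58.1 and 33.1 times the median ratio of the other libraries in Myh2, Tnnt1, Myh7 and Tnni1. Mock replicate 4 had Ttn at 1.496 of Acta1, against 0.198 to 0.396 in the other 12. Neb, Ryr1, Mylpf and Tnni2 stood at 5.70, 4.48, 4.07 and 4.03 times the median ratio of the others in it, and Atp2a1 and Casq1 at 0.650 and 0.543 times. That library also held 200006 CPM of Rn45s and 18232729 counts, and their part in these ratios was not tested.

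Other muscle genes were read from the same comparison of GCR with mock, by edgeR's quasi-likelihood test with Benjamini-Hochberg adjustment, in which 8.52% of all genes fell. Of other sarcomere and Z-disc genes 19 of 24 fell (median -3.97), among them Csrp3, the muscle LIM protein (-3.52, adjusted p = 0.0309), and Ldb3, a Z-disc scaffold (-3.89, adjusted p = 0.0296). Of other calcium handling genes 10 of 14 fell (median -3.45), with Sln, a pump inhibitor, at -3.60 (adjusted p = 0.0380), and with the slow and cardiac pump Atp2a2 at -0.97 without passing. Of other energy genes 8 of 14 fell (median -2.67), with the phosphofructokinase Pfkm at -3.54 (adjusted p = 0.0340) and the muscle cytochrome oxidase subunit Cox6a2 at -2.64 (adjusted p = 0.0481). Of neuromuscular junction genes 3 of 10 fell (median -2.60), and the receptor subunit Chrnb1 (-0.44) and Lrp4 (0.21) did not pass. Of developmental genes 2 of 9 tested fell (median -1.56), with Myh8 at -8.65 (adjusted p = 0.0180) and the embryonic and atrial light chain Myl4 at -1.36 without passing. These lists are described by their counts, with no test of a list as a whole.

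Markers of other tissues were read from the same comparison of GCR with mock, in which 8.52% of all genes fell and 8.03% rose. Of 16 squamous epithelium genes tested (oesophagus or skin) 12 fell in GCR (median -6.66), with Krt4 at -7.05 (edgeR adjusted p = 0.0166) and Krt13 at -7.02 (edgeR adjusted p = 0.0183). Their summed level over 18 genes ran from 14.3 to 59.6 CPM in GCR and from 17.8 to 2006 CPM in mock, with Rhcg at 0 in every library of both. In the 13 libraries above 1000 CPM of Acta1 the squamous sum ran from 118 to 5733 CPM, against 14.3 to 321 CPM in the 24. Krt4 was at 18.95 CPM in mock + NR replicate 5 and at 218 to 1836 CPM in the other 12, and at most at 69.7 CPM in the 24.

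Of smooth muscle markers 3 of 9 fell in GCR: Des at -3.43 (edgeR adjusted p = 0.0212), Lmod1 at -1.64 and Smtn at -1.22. Acta2 (-0.69), Myh11 (-0.68), Cnn1 (-0.94), Actg2 (-0.96), Synm (-1.11) and Tagln (0.15) did not pass. Des had the highest mean level of the 9, and whether its RNA came from smooth or other muscle was not tested. The sum of the 9, Des included, ran from 1919 to 6768 CPM in the 13 libraries and from 448 to 3852 CPM in the 24. Of heart markers 2 of 14 tested fell, with Myl3, a light chain shared with slow muscle, at -6.67 (edgeR adjusted p = 0.0149) and Actc1 at -1.93 without passing. Of fat markers 0 of 7 and of cartilage and tendon markers 0 of 4 tested fell (Cfd -1.31, Cidea -2.03, Chad -0.18 and Scx -0.92). Of lung epithelium markers 3 of 11 rose, while Scgb1a1 (1.09) and Sftpc (-0.40) did not pass. The fat sum ran from 52.5 to 3635 CPM in the 13 libraries and from 33.8 to 9901 CPM in the 24. The cartilage and tendon sum ran from 40.7 to 246 CPM in the 13 and from 46.98 to 326 CPM in the 24, so that both overlapped. The lung epithelium sum ran from 93303 to 321845 CPM in GCR and from 65189 to 186027 CPM in mock. It ran from 33063 CPM (silicon replicate 4) to 178730 CPM in the 13 libraries and from 49424.5 to 321845 CPM in the 24. The part of these other tissues in the values of the 40 genes was not tested.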

How the data were processed

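RNA of whole lung was turned into cDNA with SMART-seq v4 and into libraries with Nextera XT, per the labels' protocols. The deposited values are whole-number counts per gene symbol and library, made by the authors from mm10 with the aligner STAR 2.5.2, the counter HTSeq 0.13.5, Trimmomatic 0.36 and the quality tools MultiQC 1.12 and FastQC 0.11.4, named without order per the submitters' processing notes. The sources used here give neither strand settings nor annotation, so overlapping genes cannot be separated.

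From these counts, CPM were computed over all gene symbols, and levels per length with the longest principal coding transcript of GENCODE M21. Differences were tested with edgeR 4.0.16 (R 4.3.3, TMM scaling, filterByExpr, group and sex as terms, all 37 libraries, quasi-likelihood test, Benjamini-Hochberg adjustment over 16977 genes, called under 0.05). The single test of Acta1 was an exact permutation test of log2(CPM + 1) over mice (scipy 1.17.1). Counts were also simulated for all 37 libraries, with the same spread for every gene and known changes in GCR. In GCR against mock, 100 of 100 genes changed 4-fold and 19 of 100 changed 2-fold were recovered among 16766 genes. Acta1 differed by orders of magnitude within groups, so these rates do not carry over to the members. Depth ran from 9485197 to 66381526 counts. Intervals and limits of 3 counts cover counting error only, since reads carry no molecular identifiers. Each library is 1 mouse, and p-values measure the spread between these mice.

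Alternatives were RLE scaling, scaling without muscle genes, no filter on low counts, no sex term, only the groups compared, DESeq2 1.42.0 and leaving out each library. Fits without libraries above 1000 CPM of Acta1, 10000 CPM of Nppa or 100000 CPM of Rn45s were added after the data were seen. The members, lists and rules were chosen with earlier results of these data known. Fold changes of members were named for the genes of each role with the highest mean CPM (up to 2 a role) and Pax7. Of each other muscle list, the 2 genes with the highest mean CPM were named, and of each marker list the 2 highest in libraries above 1000 CPM of Acta1. Other named genes were chosen after their values were seen. One marker list is not reported here.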

Additional observations from a re-analysis of the deposited data

Results flagged for a closer look

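Single libraries stood far from the rest of their group in 12 of 126 checks (21 genes in 6 groups, Dixon's criterion). The criterion is set for about 1 in 20 by chance when checks are independent. These genes varied together within libraries, so the checks are not independent and the 12 are not read as more than chance. Silicon replicate 4 was the highest of the 7 silicon libraries in 4 genes: Myh7 at 761 CPM, Tnnt1 at 647 CPM, Tnni1 at 319 CPM and Myh2 at 2544 CPM. These are genes of slow and type IIa fibres, and the same library held the highest Acta1 level of the series (36927 CPM).

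Mock + NR replicate 2 was the highest of its 5 libraries in Myog at 33.2 CPM, Pax7 at 0.402 CPM, Tnni1 at 9.21 CPM and Myh2 at 11.4 CPM, with Acta1 at 29653 CPM. GCR replicate 4, the most deeply sequenced library, was the highest of its 7 in Pax7 at 0.105 CPM (7 counts) and Tnni1 at 0.964 CPM. Gamma replicate 4 was the highest of its 5 in Myog at 0.0313 CPM (1 count) and Pax7 at 0.0625 CPM (2 counts). The values of Pax7 and Myog in GCR and gamma thus rest on 1 to 7 counts.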

How the results depend on the processing

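In GCR against mock 34 members fell, against 8.52% of all genes. Without the libraries above 1000 CPM of Acta1, or without those and the heart-rich ones, 0 fell, against 0% of all genes. Without the Rn45s-rich ones 0 fell as well, against 0%. With single libraries left out 2 to 36 fell, and the calls of all genes moved too. Gamma against mock gave 20 lower members by DESeq2, against 0.907% of all genes, in place of 0. Without the Acta1-rich libraries 11 members were higher in silicon than in mock, against 0.496% of all genes. Without the heart-rich ones as well 13 were, against 0.769%. Under this second setting 1 was higher in mock + NR than in mock, against 0.47%. Lower in silicon + NR than in silicon were 4 members, against 0.933%, and 3 under the second setting, against 1.02%. Silicon replicate 3, with 403 CPM of Acta1, was 1 of 2 silicon libraries left. Acta1, a member, chose the libraries of these settings, so no result is read from their counts. With single libraries left out, the members lower in silicon + NR than in silicon numbered 0 to 1. The Acta1 difference of silicon + NR against mock + NR ran from -0.60 to 2.81, and Mb in gamma against mock from -1.09 to 0.31.

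Log2 fold changes turned positive in GCR against mock without the Acta1-rich libraries (and without these and the heart-rich ones) for Acta1 at 1.64 (1.63), Tnnt3 at 0.79 (0.83), Myh1 at 2.45 (2.45), Atp2a1 at 0.20 (0.18), Casq1 at 0.54 (0.52) and Fbxo32 at 0.16 (0.19). In gamma against mock they turned positive for Acta1 at 0.30 (0.28), Tnnt3 at 0.43 (0.34), Myh1 at 0.82 (0.83), Casq1 at 0.40 (0.14) and Fbxo32 at 0.73 (0.28), under the first setting alone for Myl1 at 2.33, Ttn at 2.58, Tcap at 1.66, Mb at 2.72, Pygm at 2.02 and Trim54 at 2.17, and under the second alone for Myf6 at 0.36. Both settings leave the same 3 mock libraries, chosen by the level of a member, so that no result is read from the turns. The turns in gamma under the first setting alone were seen only with the heart-rich gamma replicates 3 and 4 kept. The median shares of Tnnt1, Tnni1 and Myh1 (of 4 myosins) in the Acta1-rich libraries moved by less than the spread between libraries under the alternatives tried; the other shares were not recomputed. No paired analysis was possible because the labels give no replicate numbers that link mice of different groups. At the depths reached, levels of Pax7 and Myog outside the Acta1-rich libraries rest on a few counts.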

Other observations

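Further muscle genes outside the 40, chosen after their values were seen, separated the same libraries. Myh8, the perinatal myosin, lay at 759 to 9258 CPM in the 13 libraries above 1000 CPM of Acta1 and at most at 108 CPM in the 24 others. Myl3, a light chain of slow muscle and heart, lay at 210.5 to 2908 CPM in the 13 and at most at 70.7 CPM in the 24. Fabp3, a fatty acid carrier of heart and red muscle, stood at 1189 CPM in silicon replicate 4 and at most at 468 CPM in the other 12.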
